A study of Mus musculus with 22 samples.

Results

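Myeloid cells, the microglia and macrophages of the cord among them, carry receptors that restrain them when a neighbouring cell shows the matching ligand. The 7 genes followed here in the injured mouse spinal cord were the receptors Cd200r1, Sirpa, Lair1, Pirb and Pilra, and the ligands Cd200 and Cd47. They were taken by gene symbol, with all of their probes, which gave 7 of 19087 named genes and 17 of 43379 probes on the array. Neither the genes nor the probes were chosen by a measured value, although earlier results of these data were known when the set was drawn up.

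CD200, a membrane protein of neurons and endothelium among other cells, binds CD200R1 on myeloid cells, which passes its signal through the adaptors Dok1 and Dok2. CD47 is present on nearly all cells and binds SIRPα on macrophages, microglia and neurons, a contact known for holding back phagocytosis. LAIR1 binds collagens and C1q. PIR-B binds MHC class I molecules and, in neurons, the myelin proteins Nogo, MAG and OMgp. SIRPα, LAIR1, PIR-B and PILRα each carry an inhibitory motif in the cytoplasmic tail (ITIM) that recruits the phosphatases SHP-1 and SHP-2, which are encoded by Ptpn6 and Ptpn11.

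The mice were adult (3 to 4 months) C57BL/6 females. IκBα-dn mice carry a truncated IκBα, a dominant inhibitor of NF-κB, under the GFAP promoter, which is active in astrocytes, and WT mice were littermates without the transgene. Both genotypes were examined naïve and at 3 days, 3 weeks and 6 weeks after a thoracic contusion (SCI). No sham-operated group was among them, so the surgery and its care cannot be told apart from the contusion. RNA came from the whole cord segment around the lesion, so the measurements cannot tell fewer cells of a type from less RNA per cell. Each 2-colour array set 1 mouse against another. Of 22 arrays, 21 were used, with 23 mice and 3 mice in each of the 8 groups except WT at 3 weeks, which had 2, and 10 of the arrays held both genotypes at the same time point. The 1 array on which the labels disagree about the time point of the WT mouse in 1 channel, was left out. WT mouse 2 at 3 days stood apart from WT mouse 3 at that time in the myeloid genes described here, and the main values that rest on it are also given without it. This mouse was picked by those values, so the results without it are descriptive.

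A difference is given as the log2 ratio from a linear model over all arrays, with its standard error (SE), and was called at an adjusted p under 0.05 over all 43379 probes (limma, Benjamini-Hochberg). Where 1 probe stands for a gene it is the one with the lowest number. Counts of calls with a mouse left out are given without the share of all probes, so they do not set the members apart from other probes. An array ratio is the log2 ratio of the 2 mice on an array after the dye effect was taken out. The deposited values are ratios without intensities, so how strongly a gene was expressed, and whether the markers of the tissue were above background, could not be read from them.

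The 7 genes lie on 4 chromosomes of the mouse genome (GRCm38.p6): Sirpa on chromosome 2 (129591042 to 129632228), Pilra on chromosome 5 (137821952 to 137836278), Pirb (3712505 to 3720382) and Lair1 (4007073 to 4073567) on chromosome 7, and Cd200r1 (44765736 to 44794977), Cd200 (45382111 to 45409060) and Cd47 (49851328 to 49912503) on chromosome 16. Start-site sequences of the RefSeq table matched 5 of the 7 genes, all but Cd200r1 and Sirpa. The promoters that held the motif described below, those of 3 receptors, are shown. Each is given as the 250 bases before the start site that the table lists, on the strand of the gene. For Pilra and Pirb that site is the upstream end of the gene span above. For Lair1 it is 4063204, inside the span, so the bases shown belong to an internal start and not to the outermost one. Capitals mark GAGGAA or, on the opposite strand, TTCCTC, the purine-rich core that the myeloid factor PU.1 and other ETS factors recognise.
Pilra, chr5:137836279-137836528, minus strand: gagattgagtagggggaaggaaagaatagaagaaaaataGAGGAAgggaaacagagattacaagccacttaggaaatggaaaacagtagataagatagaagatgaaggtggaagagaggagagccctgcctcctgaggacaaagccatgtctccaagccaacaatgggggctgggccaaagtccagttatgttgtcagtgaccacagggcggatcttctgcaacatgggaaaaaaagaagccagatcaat
Pirb, chr7:3720383-3720632, minus strand: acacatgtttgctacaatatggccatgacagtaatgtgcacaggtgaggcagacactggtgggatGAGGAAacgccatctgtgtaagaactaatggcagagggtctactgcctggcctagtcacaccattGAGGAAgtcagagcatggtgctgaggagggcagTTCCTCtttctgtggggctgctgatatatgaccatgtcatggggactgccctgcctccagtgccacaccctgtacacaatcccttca
Lair1, chr7:4063205-4063454, minus strand: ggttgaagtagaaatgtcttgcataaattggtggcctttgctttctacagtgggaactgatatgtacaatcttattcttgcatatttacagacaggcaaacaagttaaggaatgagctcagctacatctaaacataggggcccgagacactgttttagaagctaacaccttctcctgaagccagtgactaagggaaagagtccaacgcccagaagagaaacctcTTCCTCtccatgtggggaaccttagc
The Pirb promoter held 3 matches, which began 185, 120 and 87 bases before the start. The Pilra promoter held 1 match 211 bases before the start, and the Lair1 promoter 1 match 26 bases before its listed internal start. The promoters of Cd200 and Cd47 held none. Of all 32851 promoters in the table, 23.3% held at least 1 match in the same 250 bases, so a match is a description of the sequence and names no binding site.

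At 3 days after SCI 4 of the 5 receptors were above naïve in both genotypes, Lair1 in WT mice by 1 of its 3 probes. In IκBα-dn mice at 3 days, Cd200r1 was 6.23-fold above naïve IκBα-dn mice (log2 2.64 ± 0.35 SE, adjusted p = 0.000503, limma), Pirb 5.33-fold (2.41 ± 0.36, adjusted p = 0.0008), Pilra 3.34-fold (1.74 ± 0.22, adjusted p = 0.000395) and Lair1 1.76-fold (0.82 ± 0.15, adjusted p = 0.0027). In WT mice at 3 days the same genes stood 3.24-fold (Cd200r1, adjusted p = 0.026), 2.89-fold (Pirb, adjusted p = 0.0352) and 2.27-fold (Pilra, adjusted p = 0.0236) above naïve WT mice. Lair1 was called in WT mice by 1 of its 3 probes (log2 0.94, adjusted p = 0.0262), while the lowest-numbered one missed the threshold (0.55, adjusted p = 0.0582). Over the 17 member probes, 8 were called in IκBα-dn mice at 3 days, where 6.45% of all probes were, and 6 in WT mice, where 1.98% of all probes were. All of these calls were higher after injury.

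The WT calls at 3 days depended on single mice. None of the 6 was made without WT mouse 1 or 3 at 3 days, or without naïve WT mouse 1 or 3. In that order Cd200r1 was 1.296, 1.315, 1.317 and 1.738 in these fits (1.694 with all mice), and Pirb 1.012, 1.186, 0.945 and 1.522 (1.532). The 1 array of WT at 3 days over naïve held mouse 1 of both groups, so omitting either removes this direct comparison. Without WT mouse 2 at 3 days, the one singled out by its low values, 8 were made. In IκBα-dn mice 7 or 8 probes were called with any 1 mouse left out.

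Ratios of an injured over a naïve mouse on the same array were of 1 sign for Cd200r1, Pirb, Pilra and Lair1. These arrays cover 3 days, 3 weeks and 6 weeks after SCI. The 3-day fits also use arrays without a naïve mouse, some of them given below, and on those Pirb lay on both sides of 0. On the 6 arrays that set an injured mouse over a naïve mouse of the same genotype, Cd200r1 lay between 1.05 and 2.75, Pirb between 0.85 and 2.51, Pilra between 0.50 and 1.82, and Lair1 between 0.48 and 1.04, above 0 on all 6 for each gene. At 3 days the ratio for Cd200r1 was 2.70 on the IκBα-dn array and 2.32 on the WT array. For Pirb these ratios were 2.16 on the IκBα-dn array and 2.43 on the WT array, and for Pilra they were 1.82 on the IκBα-dn array and 1.54 on the WT array. Each of these values comes from 1 array of 1 injured over 1 naïve mouse.

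**Figure D1:**
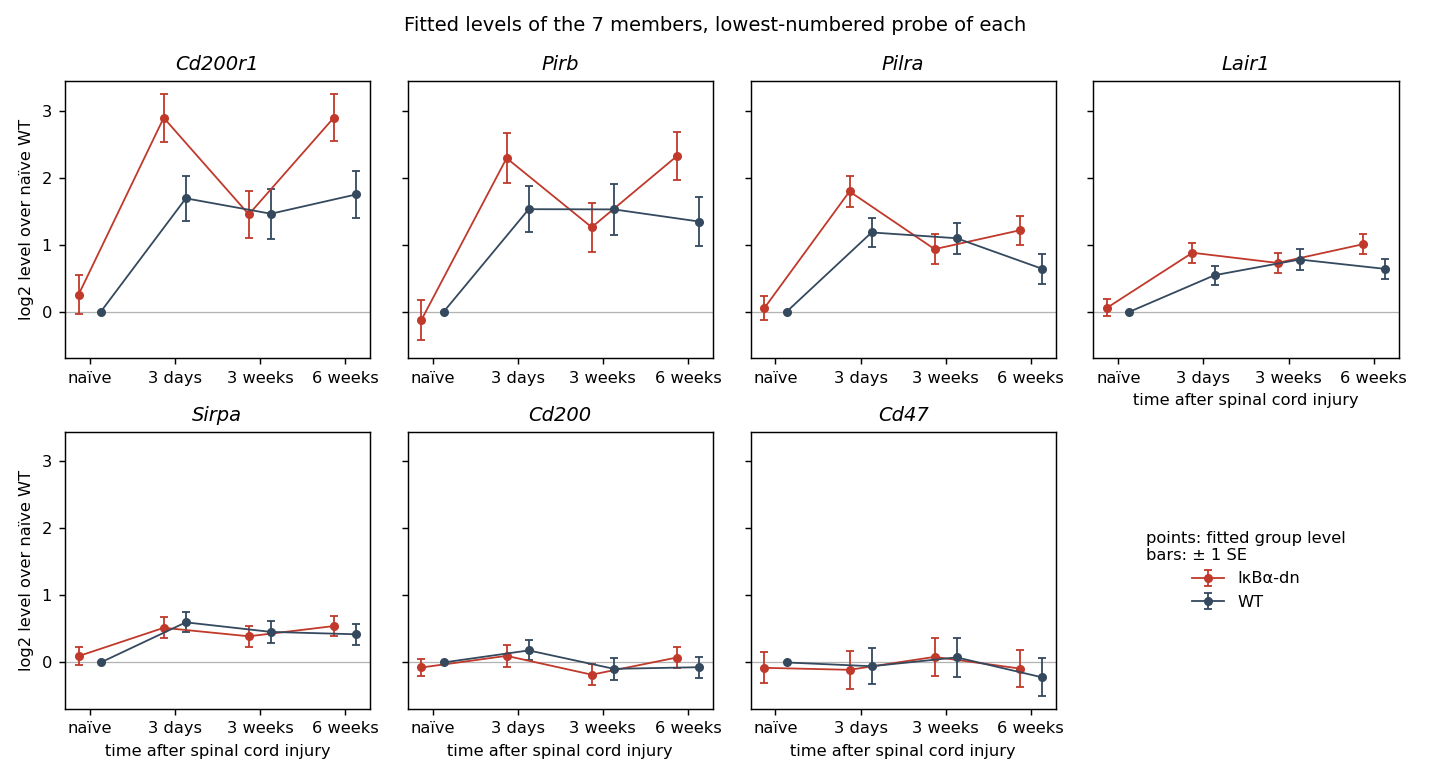
Fitted log2 level of each member (lowest-numbered probe) relative to naïve WT mice, in IκBα-dn (left, red) and WT (right, dark) mice at each time point; points are group levels, bars ± 1 SE, and naïve WT is 0 by definition. Cd200r1 in IκBα-dn mice stands at 2.90 at 3 days, 1.45 at 3 weeks and 2.90 at 6 weeks, while the Cd200 and Cd47 levels shown lie between -0.22 and 0.18 at all times. The Cd47 probes not shown range from -0.73 (probe 27258, IκBα-dn at 3 weeks) to 0.27 (probe 23527, WT at 3 days).

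At 3 weeks the calls were fewer in both genotypes. In IκBα-dn mice 2 probes were called, both of Lair1 (log2 0.67, adjusted p = 0.0478, and 1.30, adjusted p = 0.0098), where 0.634% of all probes were. In WT mice 3 probes were called, the same 2 probes of Lair1 (0.78, adjusted p = 0.0228, and 1.38, adjusted p = 0.00739) and Pilra (1.10, adjusted p = 0.0319), where 1.07% of all probes were. Cd200r1 was 1.20 ± 0.35 above naïve in IκBα-dn mice (adjusted p = 0.159) and 1.46 ± 0.37 in WT mice (adjusted p = 0.0782), so neither passed the threshold. Pirb was 1.38 above naïve in IκBα-dn mice (adjusted p = 0.093) and 1.53 in WT mice (adjusted p = 0.0707). With 1 mouse left out, 0 to 2 member probes were called in IκBα-dn mice and 0 to 2 in WT mice at this time.

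At 6 weeks the same 4 receptors were above naïve in IκBα-dn mice. Of the 17 member probes, 11 were called in IκBα-dn mice, where 25.8% of all probes were, 10 higher and 1 lower. Cd200r1 was 6.25-fold above naïve (log2 2.64 ± 0.34, adjusted p = 3.03e-05), Pirb 5.44-fold (2.44 ± 0.35, adjusted p = 7.63e-05), Pilra 2.23-fold (1.16 ± 0.22, adjusted p = 0.000715) and Lair1 1.93-fold (0.95 ± 0.14, adjusted p = 0.000133). In WT mice 2 probes were called, where 0.728% of all probes were: Cd200r1 at 3.37-fold (1.75 ± 0.36, adjusted p = 0.0336) and the Lair1 probe 18691 (1.18, adjusted p = 0.0149). Pirb was 1.35 ± 0.36 above naïve in WT mice (adjusted p = 0.111) and Pilra 0.64 ± 0.22 (adjusted p = 0.245), neither past the threshold. Without the naïve IκBα-dn mouse 3, 7 probes in place of 11 were called in IκBα-dn mice at 6 weeks, and with 1 mouse left out 0 or 1 in place of 2 in WT mice.

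The levels at 6 weeks were set directly against those at 3 days. No member probe was called in IκBα-dn mice, where 16.5% of all probes were, and none in WT mice, where 0.118% of all probes were. Unadjusted p was under 0.05 for 4 of the 17 probes in IκBα-dn mice and for 3 in WT mice. Of all 43379 probes it was so for 12373 in IκBα-dn mice and 4827 in WT mice. Cd200r1 differed by 0.00 between 6 weeks and 3 days in IκBα-dn mice (95% interval -0.73 to 0.74). The difference for Pilra was -0.58 in IκBα-dn mice (interval -1.04 to -0.12, adjusted p = 0.0822) and -0.54 in WT mice (interval -1.02 to -0.06, adjusted p = 0.376), and neither passed the threshold.

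In naïve cords the genotypes were set against each other as a baseline. No member probe was called, beside 0% of all probes, and none had an unadjusted p under 0.05, beside 1190 of all 43379 probes. On the 3 naïve arrays the ratio of IκBα-dn over WT for Cd200r1 was 0.43, 0.30 and 0.09, and for Pirb it was 0.11, -0.67 and 0.08. The fitted difference was 0.26 for Cd200r1 (95% interval -0.36 to 0.88) and -0.12 for Pirb (interval -0.75 to 0.51).

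At 3 days no member probe was called between the genotypes either, again with 0% of all probes called. Unadjusted p was under 0.05 for 8 of the 17, beside 3004 of all 43379 probes. The largest fitted difference was that of Cd200r1, 1.20 ± 0.33 higher in IκBα-dn mice (adjusted p = 0.533), followed among the lowest-numbered probes by Pirb at 0.76 (adjusted p = 0.687) and Pilra at 0.61 (adjusted p = 0.59). The 2 arrays that held both genotypes gave unlike values. With IκBα-dn mouse 1 over WT mouse 2 the ratio was 2.54 for Cd200r1 and 1.87 for Pirb. With IκBα-dn mouse 3 over WT mouse 3 it was 0.16 for Cd200r1 and -0.16 for Pirb. WT mouse 2 was also the lower sample on its other array, where a WT mouse at 3 weeks exceeded it by 1.10 for Pirb and 0.60 for Cd200r1, while on the IκBα-dn array of 3 weeks over 3 days both genes were lower at 3 weeks (-1.28 for Pirb and -1.52 for Cd200r1).

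The 3-day values rest on single mice. The genotype difference of Cd200r1 was 0.65 without IκBα-dn mouse 1, 1.82 without IκBα-dn mouse 3 and 1.84 without WT mouse 3, and that of Pirb was 0.44, 1.25 and 1.35 with the same omissions, none of them called. Without WT mouse 2 the genotype difference was 0.36 for Cd200r1, -0.10 for Pirb, 0.28 for Pilra and 0.08 for Lair1, each with an adjusted p of 1. WT mouse 2 was singled out by its low values in these same genes, so leaving it out raises the WT level by construction. The values and p-values (limma) without it are descriptive and test nothing. The same omission left the elevation of WT mice at 3 days over naïve larger, with 8 member probes called. That elevation was 2.34 for Cd200r1 (adjusted p = 3.99e-06), 2.26 for Pirb (adjusted p = 1.67e-06), 1.497 for Pilra (adjusted p = 0.000205) and 0.74 for Lair1 (adjusted p = 0.00311). Sirpa was then 0.62 above naïve WT mice (adjusted p = 0.0439). Pirb was then lower at 6 weeks than at 3 days in WT mice (-0.86, adjusted p = 0.0224), and 2 member probes were called in that comparison. The microglia and macrophage markers of the same arrays moved with these values: their median ratio was 0.98 with IκBα-dn mouse 1 over WT mouse 2, and 0.06 with IκBα-dn mouse 3 over WT mouse 3. The part of the marker levels in the 3-day values was not tested.

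At 3 weeks, with 0% of all probes called between the genotypes, no member probe was called. Unadjusted p was under 0.05 for 1 of 17, beside 971 of all 43379 probes. The ratios of IκBα-dn over WT on the 2 arrays were -0.04 and 0.12 for Cd200r1, -0.11 and -0.16 for Pirb, 0.16 and -0.21 for Pilra, and 0.09 and -0.11 for Lair1. The interval of the fitted difference for Cd200r1 ran from -0.75 to 0.73, and that for Pirb from -1.02 to 0.49.

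**Figure D2:**
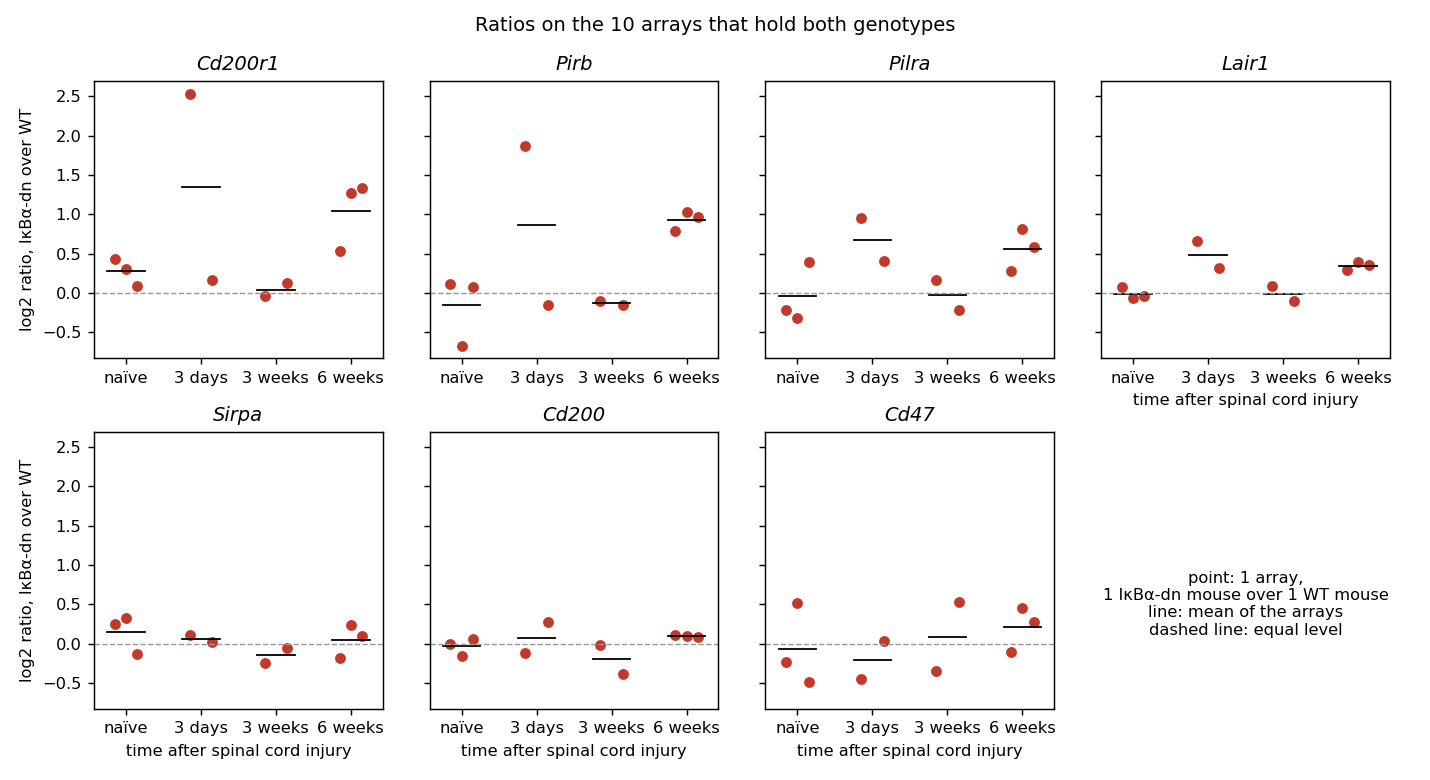
Log2 ratio of IκBα-dn over WT by time point, on the 10 arrays that carried a mouse of either genotype; each point is 1 array of 1 IκBα-dn mouse over 1 WT mouse, the short line their mean and the dashed line an equal level. At 6 weeks all 3 points lie above 0 for Cd200r1, Pirb, Pilra, Lair1 and Cd200, and at 3 days the 2 points for Cd200r1 lie at 2.54 and 0.16.

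At 6 weeks 4 receptors of the IκBα-dn mice exceeded those of WT mice. Cd200r1 differed by 2.22-fold (log2 1.15 ± 0.30 SE, adjusted p = 0.0117, limma), Pirb by 1.97-fold (0.98 ± 0.30, adjusted p = 0.0317), Pilra by 1.49-fold (0.57 ± 0.19, adjusted p = 0.0397) and Lair1 by 1.29-fold (0.37 ± 0.13, adjusted p = 0.0487). Over the 17 member probes 6 were called, all higher in IκBα-dn mice, which is 35.3% of them beside 19.9% of all probes. The median difference was 0.37 over the 17 probes and 0.02 over all probes. The 2 ligands and Sirpa had no called probe.

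On the 3 arrays of this time point the ratio of IκBα-dn over WT for Cd200r1 was 0.53, 1.28 and 1.33. For Pirb it was 0.79, 1.03 and 0.96, for Pilra 0.28, 0.82 and 0.59, and for Lair1 0.29, 0.40 and 0.35. All 12 ratios were above 0, and the pair of IκBα-dn mouse 1 with WT mouse 3 gave the lowest value for each of these genes. These 3 arrays shared 1 slide code, and each array held both genotypes. For Sirpa the ratios were -0.19, 0.24 and 0.10, on both sides of 0.

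The 6-week calls depended on the mice that were included. With each of the 6 mice left out in turn, the difference for Cd200r1 stayed between 1.02 and 1.39 and its adjusted p between 0.00958 and 0.112. The call was lost without IκBα-dn mouse 2 or 3 or without WT mouse 1 or 2. For Pirb the difference stayed between 0.91 and 1.06 and its adjusted p between 0.0564 and 0.172, for Lair1 between 0.34 and 0.40 with an adjusted p between 0.0777 and 0.22, and neither was called with any 1 of the 6 mice left out. Pilra lay between 0.38 and 0.69, and its adjusted p between 0.0393 and 0.333. Over the 17 member probes, 0 to 2 were called with a mouse left out. The share of all probes called in these fits is not given, so this count says nothing about the members alone.

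Probes of the same receptor gave the same direction. Both probes of Cd200r1 were called (1.15, and 0.70 with an adjusted p of 0.0372), as were both of Pirb (0.98, and 0.93 with an adjusted p of 0.0337). Of the 3 probes of Lair1, 1 was called and the others gave 0.40 (adjusted p = 0.206) and 0.41 (adjusted p = 0.102). Over the 21 arrays the 2 Pirb probes correlated at r = 0.991, the 2 Cd200r1 probes at 0.914 and the Lair1 probes at 0.767 to 0.966. Pirb has near-identical activating relatives, the Pira genes, and Cd200r1, Sirpa and Pilra have close relatives too. Probe sequences were not analysed here, so signal from a relative cannot be told apart.

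**Figure D3:**
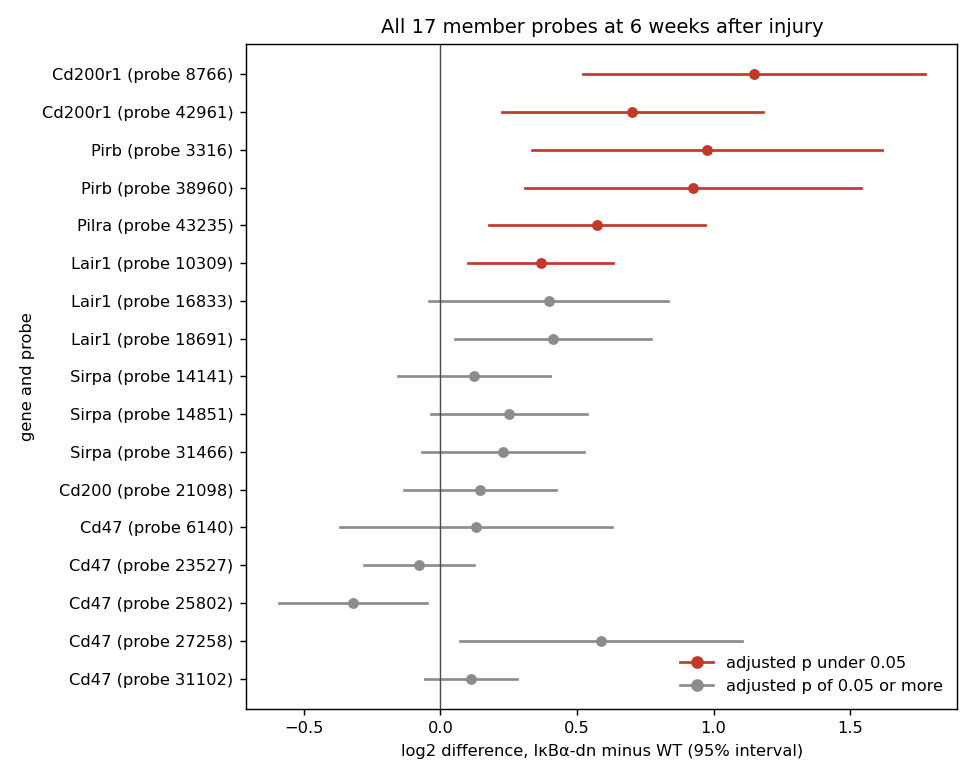
Log2 difference of IκBα-dn minus WT at 6 weeks for all 17 member probes (points) with its 95% interval (lines); red marks an adjusted p under 0.05. The 6 red probes belong to Cd200r1, Pirb, Pilra and Lair1, and the 5 Cd47 probes lie between -0.32 and 0.59.

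Sirpa, the receptor for CD47, was called after injury at 1 time. In IκBα-dn mice at 6 weeks it was above naïve by 0.45 ± 0.15 (adjusted p = 0.0377), and the probe 31466 by 0.50 (adjusted p = 0.0293), whereas the third probe gave 0.09 (adjusted p = 0.764). The call of the lowest-numbered probe was lost without any 1 of the IκBα-dn mice at 6 weeks and without naïve IκBα-dn mouse 2 or 3. In WT mice at 3 days the lowest-numbered probe was 0.60 above naïve with an adjusted p of 0.0501. Its array ratios of injured over naïve mice were above 0 on all 6 arrays, from 0.15 to 0.75. Between IκBα-dn and WT mice the difference at 6 weeks was 0.12 (95% interval -0.15 to 0.40, adjusted p = 0.579). The 3 Sirpa probes correlated weakly with each other (r between -0.05 and 0.44 over 21 arrays).

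Cd200, the ligand of CD200R1, was measured by 1 probe, which was called in no comparison. Its ratio of IκBα-dn over WT at 6 weeks was 0.11, 0.10 and 0.08 on the 3 arrays, and the fitted difference was 0.14 (95% interval -0.13 to 0.42, adjusted p = 0.505). Over naïve mice it stood at 0.15 in IκBα-dn mice (adjusted p = 0.552) and at -0.07 in WT mice (adjusted p = 0.936) at 6 weeks. On the 6 arrays of injured over naïve mice its ratio was above 0 on 3.

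Cd47, the ligand of SIRPα, had 5 probes that did not agree. At 6 weeks the probe 25802 was lower in IκBα-dn mice than in naïve IκBα-dn mice (-0.46, adjusted p = 0.0298), the only member probe called in that direction, while the probe 27258 gave 0.56 (adjusted p = 0.17) in the same comparison. These probes correlated at r = -0.647 over the 21 arrays, although the annotation assigns both to the same transcript. The remaining 3 probes gave -0.01, -0.16 and 0.09, and none was called. No direction is therefore given for Cd47.

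Whether the response to injury differed between the genotypes was tested as the difference of the 2 differences. No member probe was called at 3 days or at 3 weeks, with 0% of all probes called at either time, and none at 6 weeks, where 9.21% of all probes were called. Unadjusted p was under 0.05 for 5 of 17 probes at 3 days, 0 at 3 weeks and 6 at 6 weeks. Over the whole array such a p was found for 1451, 626 and 9567 of the 43379 probes, in the same order. At 6 weeks the response of IκBα-dn mice exceeded that of WT mice by 1.10 for Pirb (95% interval 0.22 to 1.97, adjusted p = 0.115), by 0.89 for Cd200r1 (0.04 to 1.74, adjusted p = 0.203) and by 0.52 for Pilra (-0.02 to 1.05, adjusted p = 0.249). A test over all 8 groups at once (moderated F, FDR under 1%) called 7 of the 17 probes, beside 11.6% of all probes. They were both probes of Cd200r1, both of Pirb, that of Pilra and 2 of Lair1.

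Across the 21 arrays the ratios of the 4 receptors were correlated, although their sizes differed. Pirb and Cd200r1 correlated at r = 0.964, Pirb and Lair1 at 0.932, Cd200r1 and Lair1 at 0.905, Pirb and Pilra at 0.9, Cd200r1 and Pilra at 0.878, and Lair1 and Pilra at 0.832. Sirpa correlated with these 4 at 0.62 to 0.741, Cd200 at 0.234 to 0.298, and Cd47 at -0.0674 to 0.0334. The arrays share mice and groups, so these values describe the arrays and carry no test.

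The named genes with the most similar course over the 21 arrays were found for each member. For Cd200r1 they were Il1rl2, C3ar1 and Tnfrsf1b (r = 0.974, 0.967 and 0.966), and for Pirb Mdfic, Hk3 and Ctsc (0.986, 0.986 and 0.983). For Lair1 they were Slamf9, Gpr183 and Lrmp (0.981, 0.977 and 0.976), and for Pilra Tspan32, Msr1 and Ncf1 (0.961, 0.95 and 0.948). The values were lower for Sirpa, with Cxcr4, Cerk and Colgalt1 at 0.87, 0.833 and 0.821. For Cd200 the genes were Epn1, Cacul1 and Asb4 (0.868, 0.868 and 0.867), and for Cd47 Ctrl, Smarcd2 and Olfr1346 (0.834, 0.828 and 0.825). Those of Cd47 follow its probe 6140 alone, which correlated with the other Cd47 probes at r between -0.231 and 9.14e-05. All of these genes were picked as the highest among the named genes, on arrays that share mice, so the values carry no test.

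Most of these receptors sit on myeloid cells, so the markers of those cells were followed beside them. Of 20 markers of microglia and macrophages 17 were measured. All 17 were above 0 in IκBα-dn against WT mice at 6 weeks, with a median of 0.34, and 4 were called, Ptprc (1.18), Laptm5 (0.90), Mpeg1 (0.58) and Itgam (0.50), which were named after their values were seen. These are 23.5% of the 17, beside 19.9% of all probes. P2ry12 and Tmem119, which mark resident microglia, differed by 0.16 (adjusted p = 0.508) and 0.17 (adjusted p = 0.761). At 3 days the same 17 were all above 0 with a median of 0.40 and none was called. The difference of Cd200r1 at 6 weeks was exceeded by 1 of the 17 markers, that of Pirb by 1, that of Pilra by 5 and that of Lair1 by 8.

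On each array at 6 weeks the member was set against the median marker ratio of that array. That median was 0.23, 0.43 and 0.42 for IκBα-dn over WT. Pirb exceeded it by 0.55, 0.60 and 0.54 and Cd200r1 by 0.30, 0.84 and 0.92, on all 3 arrays. Lair1 lay at 0.05, -0.03 and -0.06 from the median, on both sides of it, and Pilra at 0.05, 0.38 and 0.17. Over the 21 arrays the marker median correlated at r = 0.935 with Pirb, 0.931 with Lair1, 0.889 with Cd200r1, 0.836 with Pilra, 0.63 with Sirpa, 0.249 with Cd200 and -0.02 with Cd47. The part of cell number in the receptor values was not tested.

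**Figure D4:**
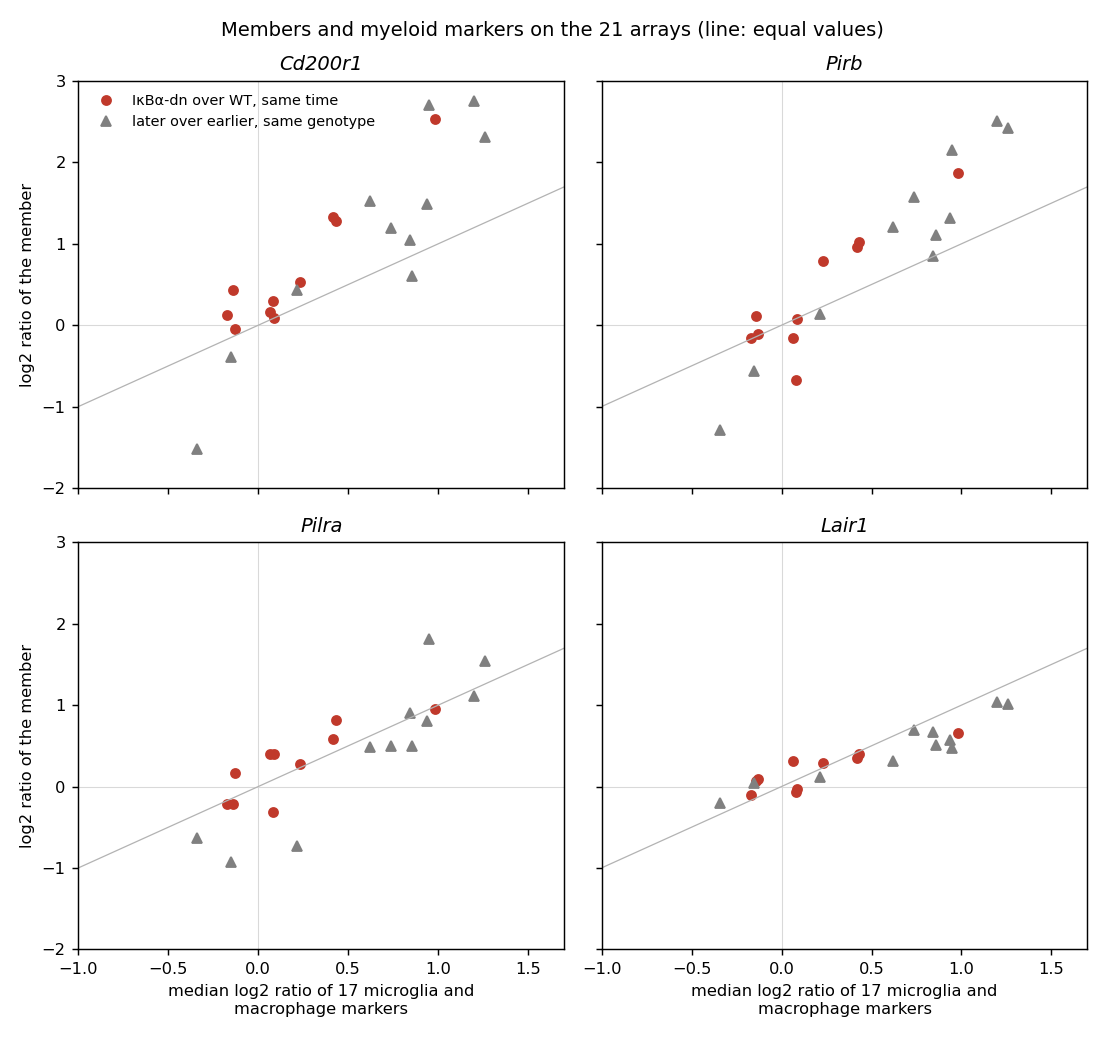
Log2 ratio of Cd200r1, Pirb, Pilra and Lair1 (vertical) against the median log2 ratio of 17 microglia and macrophage markers (horizontal) on the 21 arrays; red circles are IκBα-dn over WT at the same time, grey triangles a later over an earlier time within 1 genotype, and the line marks equal values. On the 9 arrays with a marker median over 0.5, Pirb lies above the line on 9, Cd200r1 on 8, Pilra on 3 and Lair1 on 0.

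Markers of other cell types were counted at 6 weeks in the same way, beside 19.9% of all probes called. In IκBα-dn against WT mice 4 of 9 measured neutrophil markers were called higher (median 0.58 over the 9), 2 of 8 lymphocyte markers (0.30), 6 of 10 endothelial markers (0.64) and 4 of 10 fibroblast markers (0.98). Of 15 neuronal markers 8 were called lower (median -0.68). Of 10 astrocyte markers 1 was called higher (median -0.01), and of 9 oligodendrocyte markers 1 was called higher and 1 lower (median 0.07). The shares called were 60% for endothelium, 53.3% for neurons, 44.4% for neutrophils and 40% for fibroblasts, and 25% or less for lymphocytes, oligodendrocytes and astrocytes. Their part in the receptor values was not tested. Nfkbia, which encodes IκBα, was 0.45 higher in IκBα-dn mice at 6 weeks (adjusted p = 0.00481) and gave -0.24 in naïve ones (adjusted p = 1). Where its probe lies relative to the transgene was not analysed here, so this does not check the labels.

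Other receptors with an ITIM were counted from a list. Of 18 genes 17 were measured, and in IκBα-dn against WT mice at 6 weeks 4 were called higher and 0 lower, with a median of 0.25. That is 23.5% of the list, close to the 19.9% of all probes. The calls were Cd300a, a receptor for phosphatidylserine (0.62, adjusted p = 0.0399), the lectin Clec4a2 (0.54, adjusted p = 0.0269), and, named after their values were seen, Siglecf (0.80) and the T cell protein Cd5 (0.57). Lilrb4 gave 0.79 (adjusted p = 0.174) and Cd33, which binds sialic acid, 0.49 (adjusted p = 0.146). At 3 days over naïve, 5 of the 17 were called in IκBα-dn mice, beside 6.45% of all probes, and 3 in WT mice, beside 1.98%. Lilrb4 was the highest of them (log2 2.75 in IκBα-dn mice, 1.87 in WT mice).

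Downstream of the receptors, 12 phosphatases and adaptors were measured. At 6 weeks 3 were called (25%, beside 19.9% of all probes), each higher in IκBα-dn mice. A share this near the background is no result about the list. The 3 were Dok adaptors: Dok3 (0.73, adjusted p = 0.00203), Dok2 (0.60, adjusted p = 0.0191) and Dok1 (0.60, adjusted p = 0.0146). Dok1 and Dok2 are those that CD200R1 uses. Skap2, an adaptor that binds downstream of SIRPα in macrophages, gave 0.31 (adjusted p = 0.0969). Ptpn6 (SHP-1) gave 0.28 (adjusted p = 0.337) and Ptpn11 (SHP-2) 0.20 (adjusted p = 0.548), neither past the threshold. The median of the 12 was 0.30, and at 3 days none was called between the genotypes.

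Of 14 activating receptors and chains that pair with these inhibitory receptors 7 were measured. Hcst, which encodes the signalling chain DAP10, was the 1 called at 6 weeks (0.68, adjusted p = 0.0143), which is 14.3% of the 7 beside 19.9% of all probes. Pira1, an activating relative of Pirb, gave 0.90 (adjusted p = 0.0638). Fcer1g, the chain through which the PIR-A receptors signal, gave 0.59 (adjusted p = 0.117), and Tyrobp, which encodes DAP12, 0.13 (adjusted p = 0.699). Pilrb1 gave 0.45 (adjusted p = 0.216) beside 0.57 for its inhibitory relative Pilra. The median of the 7 was 0.45. At 3 days over naïve, Fcer1g was called higher in IκBα-dn mice (2.01) and WT mice (1.47), as was Hcst (1.56 and 1.015). No other of the 7 was called in these comparisons, beside 6.45% of all probes in IκBα-dn mice and 1.98% in WT mice.

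Of 15 other ligands and partners of these receptors 14 were measured, and 2 were called at 6 weeks (14.3%, below the 19.9% of all probes). Itgb3, the integrin β3 chain, was higher in IκBα-dn mice (0.73, adjusted p = 0.00286). Omg, which encodes the PIR-B ligand OMgp, was lower (-0.42, adjusted p = 0.0294). C1qa, a chain of the LAIR1 ligand C1q, gave 0.24 (adjusted p = 0.391) between the genotypes and was above naïve at 3 days by 1.09 in IκBα-dn mice (adjusted p = 0.00347) and by 1.03 in WT mice (adjusted p = 0.0236). H2-D1, an MHC class I gene, gave 0.15 (adjusted p = 0.552). The median of the 14 was 0.19.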

How the data were processed

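Cord RNA was amplified, labelled with Cy5 or Cy3 and hybridised in pairs of mice to Agilent whole-genome arrays. The log2 ratios deposited by the authors, 1 per probe and array, had been filtered for feature quality, normalised by lowess within arrays and by quantiles between arrays (limma, version not given in the sources used here). Scale and direction are not stated in the file. They were read as log2 of Cy5 over Cy3 from the dye labels. Each array had a mean of 0 and an SD of 0.37 to 0.741, so the spread differed between arrays, and scaling to one spread was an alternative. No intensities were used, so dim probes could not be filtered, and the number of arrays limits the precision.

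Probes were named from the platform annotation, which gave 1 symbol for 33653 probes, several for 56 and none for 9670. Group differences were fitted in R 4.3.3 with limma 3.58.1 as Cy5 group minus Cy3 group, with a dye term, which was called at 58.2% of probes, and with a correlation for arrays that share a mouse (variance share 0.43 for all probes). The residual degrees of freedom were 13 and the prior ones 3.24. No value was missing. P-values were adjusted over all 43379 probes within each comparison. The labels call the samples biological replicates.

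Named genes were all members, up to 4 genes of each pathway list with the smallest p, and the 3 genes most correlated with each member. Members and lists were chosen with earlier results of these data known. The fit was tested on simulated data for IκBα-dn against WT at 6 weeks. Of the changed probes 29.6% were called at 1.5-fold and 78.8% at 2-fold, and 4.99% of the calls were false. Only 200 of 43379 probes were changed, with errors drawn from the fitted model. The simulation therefore does not copy the data, where 19.9% of all probes were called. Alternatives changed the correlation, the dye term, the array with conflicting labels, centring, scaling, the probes tested, the threshold, the arrays and the mice. Figures were drawn with matplotlib 3.10.9.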

Additional observations from a re-analysis of the deposited data

How the results depend on the processing

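The calls of Cd200r1, Pirb, Pilra and Lair1 in IκBα-dn mice at 3 days and at 6 weeks over naïve were made under all 16 alternatives of each that kept the threshold and at an adjusted p under 0.01. Under 0.001 with a fold over 2, Lair1 was lost at both times and the other 3 were not. The 6-week calls against WT mice were lost in 9 of 20 alternatives, the 2 stricter thresholds included, for Cd200r1, 12 for Pirb, 10 for Pilra and 15 for Lair1. The call of Sirpa in IκBα-dn mice at 6 weeks over naïve was lost in 10 of 18, and no called difference changed sign. Why calls were lost was not tested. Leaving out a mouse changes both the number of samples and which mice remain, and these cannot be told apart here. Counts of member probes called, of 17, moved as follows. The share of all probes called in each setting is not given, so a lower or higher count may hold for the whole array. For IκBα-dn against WT at 6 weeks, 6 in the report, the count was 0 with no dye term, 1 on only the arrays that hold both genotypes, 0 without the 3 such arrays at 6 weeks, 0 at an adjusted p under 0.01 and 0 under 0.001 with a fold over 2, and 0 to 2 with a mouse left out. For WT at 3 days over naïve (6) it was 0 with no dye term and at both stricter thresholds, and 0 to 8 with a mouse left out. For WT at 3 weeks (3) it was 7 with arrays taken as independent, 6 with the conflicting array read as 3 weeks, 6 with arrays scaled to one spread, 1 with no dye term, 1 and 0 at the stricter thresholds, and 0 to 2 with a mouse left out. For WT at 6 weeks (2) it was 5 with a dye term for each slide code, 5 with the conflicting array read as 3 weeks, 1 with scaling, 1 with no dye term, 0 at both stricter thresholds, and 0 to 1 with a mouse left out. For IκBα-dn at 3 weeks (2) it was 1 both when the dye term was dropped and when each slide code had its own, 1 and 0 at the stricter thresholds, and 0 to 2 with a mouse left out. For IκBα-dn at 6 weeks (11) it was 6 at the strictest threshold and 7 to 10 with a mouse left out. For 6 weeks against 3 days (0) it was 1 in IκBα-dn mice with arrays taken as independent and 0 to 2 in WT mice with a mouse left out. For the difference of responses at 6 weeks (0) it was 3 with arrays taken as independent and 0 to 1 with a mouse left out, the 1 being without the naïve WT mouse 1.

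Whether replicate numbers pair the mice could not be decided. Of 11 same-numbered pairs 2 correlated over 0.1 in their fitted deviations, with r between -0.536 and 0.449. On 4 arrays the 2 genotypes had equal numbers, and the fit pushes 2 mice of 1 array to opposite signs. The 2 pairs over 0.1 shared no array and were both of 6 weeks (0.423 and 0.449). With the replicate number as a block the count of member probes called was 2 for IκBα-dn against WT at 6 weeks. Over naïve it was 0 for WT at 3 days, 1 for WT at 3 weeks, 0 for WT at 6 weeks and 0 for IκBα-dn at 3 weeks. The share of all probes called with this block is not given, so these counts do not set the members apart from other probes.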

Other observations

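On the array whose labels disagree, a WT mouse at 6 weeks was set over a WT mouse labelled 3 days in the title and 3 weeks in the description. Its ratios as deposited, with the dye effect left in, were -0.76 for Cd200r1, 0.38 for Pirb, -0.08 for Pilra, -0.10 for Lair1, 0.22 for Sirpa, -0.13 for Cd200 and 0.77 for Cd47.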
